A study of Mus musculus with 75 samples.

Results

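Gpr37, Gpr37l1 and Psap encode a pair of related receptors and the secreted protein reported to act on them. They were taken by symbol from both count tables of a mouse enteric glia study, and are 3 of the 21074 distinct gene symbols in those tables. The study measured RNA by Smart-seq2, a full-length method for small amounts of RNA, in 75 libraries labelled EGC, from adult mice of both sexes that all carried the Plp1eGFP reporter, a transgene that marks glia with green fluorescent protein. How the cells were isolated is not given in the sources used here. Untreated Plp1eGFP mice gave 5 libraries of colon myenteric plexus, 6 of small intestine myenteric plexus, 5 of colon submucosal plexus and 6 of small intestine submucosal plexus. Further Plp1eGFP mice received PBS or LPS, a bacterial cell wall component that triggers inflammation, as a single intraperitoneal dose of 2 mg/kg, and were killed 2 h later, with 4 libraries for each treatment in colon and in small intestine. In the 24 h experiment the same treatments were given to Gpr37WT; Plp1eGFP mice (PBS: 6 small intestine and 4 colon libraries, LPS: 4 and 5) and Gpr37-/-; Plp1eGFP mice (PBS: 4 and 5, LPS: 5 and 4). The 2 h and 24 h libraries were all of myenteric plexus. Replicates are labelled by mouse number at 24 h and by sex and number elsewhere, with nothing on litters or shared preparations, so p-values measure only the spread between these samples, which may be technical in part.

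Gpr37 and Gpr37l1 are G protein-coupled receptors related in sequence to the endothelin receptors and known from oligodendrocytes, astrocytes and other glia. Prosaposin, the product of Psap, is cut in lysosomes into saposins, small proteins that present sphingolipids to the hydrolases that degrade them. Uncut prosaposin is also secreted, and it has been reported, with some dispute, to protect cells through both receptors by way of inhibitory G proteins.

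In the GRCm38 build with the GENCODE M21 annotation, Gpr37 (ENSMUSG00000039904.9) lies on the minus strand of chromosome 6 from 25665878 to 25690729, with 2 transcripts and 6068 exonic bases. Gpr37l1 (ENSMUSG00000026424.8) lies on the minus strand of chromosome 1 from 135160234 to 135167681, with 1 transcript and 2269 exonic bases. Psap (ENSMUSG00000004207.14) lies on the plus strand of chromosome 10 from 60277627 to 60302597, with 5 transcripts and 2744 exonic bases. The 249 bases before the transcription start of Gpr37l1 and Psap are printed because both genes differed between plexuses of the small intestine, in opposite directions. They are from RefSeq on GRCm38.p6, read on the gene's strand from 5′ to 3′, at chr1:135167683-135167931 for Gpr37l1 and chr10:60277378-60277626 for the upstream Psap start; capitals mark CpG dinucleotides.
Gpr37l1: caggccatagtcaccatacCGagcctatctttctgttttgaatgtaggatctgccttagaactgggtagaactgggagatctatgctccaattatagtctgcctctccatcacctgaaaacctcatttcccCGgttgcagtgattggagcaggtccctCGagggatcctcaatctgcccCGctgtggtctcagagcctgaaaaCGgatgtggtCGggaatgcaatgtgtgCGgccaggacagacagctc
Psap: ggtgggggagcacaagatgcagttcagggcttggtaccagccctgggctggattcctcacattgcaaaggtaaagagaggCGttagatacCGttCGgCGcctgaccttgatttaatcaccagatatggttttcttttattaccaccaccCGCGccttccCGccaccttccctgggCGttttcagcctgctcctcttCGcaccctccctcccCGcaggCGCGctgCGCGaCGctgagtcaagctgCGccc
The Gpr37l1 window held 7 CpG at 52.2% GC, and 46.4% of the 27025 RefSeq promoter windows of the same length held as many or more. The Psap window held 16 CpG at 59.0% GC, which 25.5% of windows matched or exceeded. A window of the downstream Psap start held 1 CpG at 41.4% GC. The Gpr37 window, which lies within an annotated exon and is not printed, held 16 at 60.6%. A link of CpG content to the plexus differences was not tested. The letters ACAAAG (bound by Sox factors, in 16.4% of all windows), CACGTG (the E-box core of lysosomal gene elements, 6.02%), GGGCGG (a GC box, 32.8%) and TATAAA (13.0%), each searched on both strands, were in neither printed window.

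Levels are given as CPM, the counts of a gene per 1000000 counts of its library after edgeR's TMM scaling. Total counts ran from 2547296 to 9002546 in the untreated libraries, from 1990744 to 7883251 at 2 h and from 2882539 to 33283346 at 24 h. All 7 glial markers were above 0 in each of the 16 groups, but their summed level differed by site: 9102 to 14070 CPM in small intestine myenteric, 6103 to 13370 in colon myenteric, 1062 to 5241 in colon submucosal and 526.1 to 1985 in small intestine submucosal libraries. The summed level of 6 macrophage markers ran the other way, from 48.4 to 309.9 CPM in colon myenteric and from 70.0 to 1469 in small intestine myenteric libraries, against 68.7 to 2939 and 1245 to 7057 in the submucosal ones. The submucosal libraries thus held less glial RNA and mostly more macrophage RNA, which did not hold for colon male 3 at 68.7 CPM. The submucosal values are also given below on a scale relative to glial genes. At 24 h, mitochondrial genes took 15.4% of counts in the median library of mice numbered 10 and below (12 libraries) and 4.57% in the other 25 libraries, and 3 colon libraries had summed epithelial markers above 1000 CPM.

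In untreated small intestine the receptors were low and the ligand precursor high in submucosal plexus. Gpr37 was not detected there, Gpr37l1 fell by 3.80 on the log2 scale and Psap rose by 1.12. In colon, Gpr37l1 was the only one of the 3 that passed the test between plexuses. Of all 66 tests of a member (3 genes in 22 comparisons), 4 passed an adjusted p of 0.05 in edgeR, all between plexuses, where the shares of all genes that passed were also the highest (43.5% in small intestine and 21.8% in colon); DESeq2 also called 7 others, given below or with the alternative settings.

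Gpr37 in small intestine myenteric plexus had a lowest value of 7.71 CPM, a median of 15.9 and a highest of 52.5. All 6 small intestine submucosal libraries were at 0 counts, where 3 counts would have been 0.395 to 1.08 CPM in a library. The groups did not overlap, and Gpr37 was at least 36.4-fold lower in submucosal plexus, taking 3 counts in each library as the floor (edgeR quasi-likelihood test, Benjamini-Hochberg adjusted p = 0.000217; 43.5% of 14090 genes passed between these groups). These are bulk libraries, in which fewer cells of a type and less RNA per cell cannot be told apart.

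In colon myenteric plexus the 5 Gpr37 values were 3.70, 0.302, 10.6, 11.1 and 0.525 CPM, from 17, 1, 97, 68 and 3 counts. In colon submucosal plexus they were 0, 5.32, 1.74, 0 and 0 CPM, the positive ones from 28 counts in male 3 and 12 counts in female 1. The colon groups therefore overlapped, and the difference of -1.88 ± 1.16 (log2, SE) did not pass the test (adjusted p = 0.266; 21.8% of genes passed between the colon plexuses). Between regions, colon myenteric was lower than small intestine myenteric plexus by -2.08 ± 1.11, which also did not pass (adjusted p = 0.371; 3.19% of genes passed), and the ranges overlapped between 7.71 and 11.1 CPM. The colon submucosal mean of 1.41 CPM was at least 2.27-fold above the floor of the small intestine submucosal libraries, with an adjusted p of 0.0541 (5.18% of genes passed). With TMM that bound rests on male 3: the other 4 colon libraries hold 12 counts in female 1 and 0 elsewhere, and their mean lies below the floor. Male 3 had summed glial markers of 5241 CPM, the highest of the group, and macrophage markers of 68.7 CPM. The other colon submucosal libraries had 1398 to 2939 CPM of macrophage markers. On the glial scale described below, Gpr37 in female 1 (7.06) lay above that in male 3 (3.66). Leaving out 1 library at a time gave adjusted p from 0.0419 to 0.2146 in edgeR, highest without male 3 and under the threshold only without 1 of the 3 colon libraries at 0; the replicate block gave 0.1431 and DESeq2 0.00502.

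Gpr37l1 was the more abundant receptor at every site. Small intestine myenteric libraries ran from 585.2 through a median of 1129 to 2163 CPM, and small intestine submucosal ones from 36.9 through 85.4 to 154.4. The ranges were separate, and the difference was -3.80 ± 0.54 (95% interval of the log2 difference -4.92 to -2.67; edgeR quasi-likelihood test, adjusted p = 1.4e-05). It kept its call when each of the 12 libraries was left out in turn, at -4.05 to -3.52.

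Colon myenteric libraries had Gpr37l1 at 369.7, 698.7, 729.2, 802.5 and 773.4 CPM. Colon submucosal libraries had 52.9, 513.4, 64.5, 76.1 and 248.4 CPM. Male 3 of that group, highest in glial and lowest in macrophage markers, reached into the myenteric range at 513.4. The difference was -1.82 ± 0.55 (95% interval -2.95 to -0.69; adjusted p = 0.0210). This call was lost without colon submucosal male 1, female 1 or female 2 (log2 -1.58 to -1.62, adjusted p 0.0524 to 0.0570), and grew to -2.61 without male 3. Regions did not differ by the edgeR test. Colon against small intestine was -0.82 ± 0.51 in myenteric (adjusted p = 0.470) and 1.16 ± 0.51 in submucosal plexus (adjusted p = 0.225). With 1 library left out at a time, the submucosal value ran from 0.37 to 1.41. The interaction of plexus and region for Gpr37l1 was 1.98 ± 0.72 (adjusted p = 0.183), so the larger drop in small intestine was not shown to differ from that in colon; 1.19% of genes passed that interaction.

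Psap was abundant everywhere. Small intestine submucosal libraries ran from 1337 through a median of 3185 to 4254 CPM, and myenteric ones from 846.7 through 1512 to 1953. The groups overlapped through 1 submucosal library, at 1337 CPM, and Psap rose by 1.12 ± 0.31 from myenteric to submucosal plexus (95% interval 0.49 to 1.76; edgeR quasi-likelihood test, adjusted p = 0.00526), a call kept in 12 of 12 leave-one-out fits at 1.01 to 1.28. Colon submucosal libraries had 1947, 1287, 1665, 2805 and 2682 CPM against 893.4, 784.6, 1669, 1307 and 1683 in colon myenteric ones. That difference, 0.71 ± 0.33, did not pass (adjusted p = 0.131). Colon against small intestine was -0.15 ± 0.32 in myenteric and -0.56 ± 0.32 in submucosal plexus, and the Psap interaction was -0.41 ± 0.45, none of which passed (adjusted p 0.892, 0.391 and 0.743). Ordered by mean level in untreated mice, each group overlapped its neighbour for all 3 genes.

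**Figure D1:**
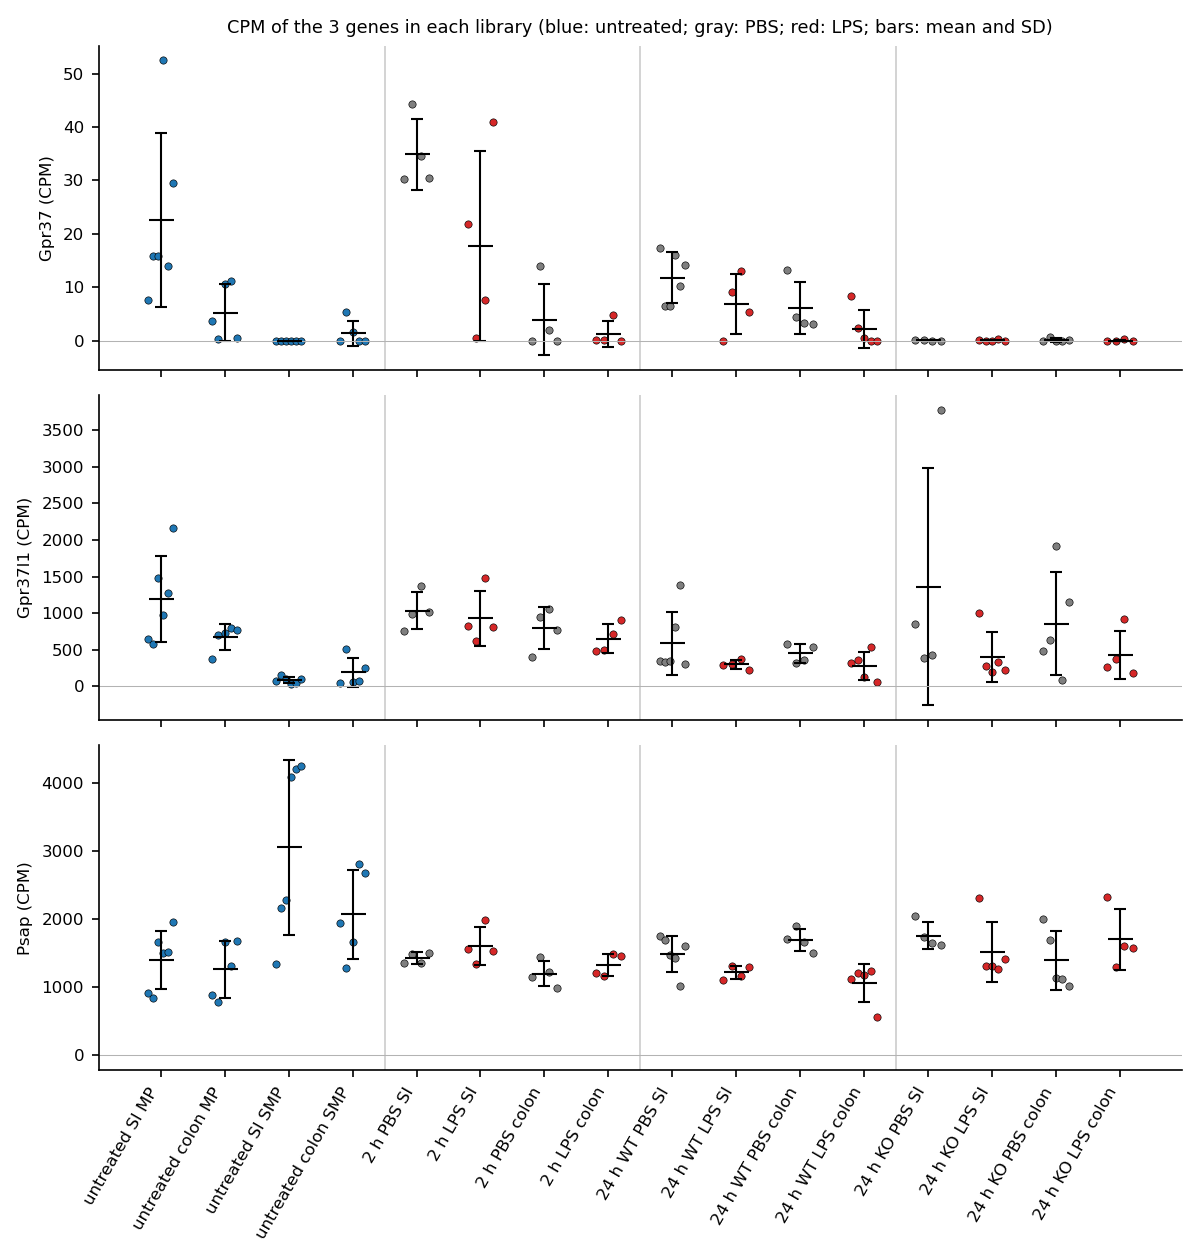
CPM of Gpr37, Gpr37l1 and Psap (y axis) in each library of the 16 groups (x axis; SI, small intestine; MP and SMP, myenteric and submucosal plexus; WT and KO, wild type and Gpr37-/-), with the group mean and SD as bars; untreated libraries are blue, PBS gray and LPS red. Gpr37 sat highest in small intestine myenteric groups (means of 22.6 CPM untreated and 34.9 at 2 h after PBS) and at 0 in small intestine submucosal plexus, Gpr37l1 was lowest in the submucosal groups, and Psap was highest in small intestine submucosal plexus.

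Because the submucosal libraries held less glial RNA, the same comparisons were run with each library scaled to the geometric mean of 6 glial genes, among them Sox10, S100b, Erbb3, Cdh19 and Foxd3, in place of TMM. Relative to those genes, Gpr37l1 means were 393.3 ± 106.2 (SD, n = 6) in small intestine myenteric, 331.2 ± 117.4 (n = 5) in colon myenteric, 260.5 ± 57.3 (n = 5) in colon submucosal and 230.8 ± 76.4 (n = 6) in small intestine submucosal libraries, in scaled CPM. The plexus difference shrank from -3.80 to -0.77 ± 0.36 in small intestine (95% interval -1.51 to -0.03; adjusted p = 0.0484) and from -1.82 to -0.35 ± 0.39 in colon, where the call was lost (adjusted p = 0.414). On this scale the median of all genes itself moved by 2.29 in colon and 3.25 in small intestine, so Gpr37l1 lay far below the general shift and close to the glial reference.

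Psap, unlike Gpr37l1, differed more between plexuses on the glial scale than with TMM. Its scaled means were 487.8 ± 129.9 and 644.7 ± 317 in small intestine and colon myenteric libraries, against 12080 ± 10940 and 5276 ± 3311 in submucosal ones. The plexus differences were 4.63 ± 0.68 in small intestine (adjusted p = 2.8e-06) and 3.03 ± 0.69 in colon (adjusted p = 0.00083), above the all-gene medians of 3.25 and 2.29. With glial scaling 85.9% and 76.9% of genes passed between the plexuses of small intestine and colon. Gpr37 in colon was -0.10 ± 1.21 on this scale, from -1.88 with TMM. In small intestine the bound for Gpr37 shrank from 36.4-fold to at least 4.75-fold lower in submucosal plexus. It came from a myenteric scaled mean of 8.74 ± 8.52 against a floor of 1.84 for 3 counts in each submucosal library. That mean leans on female 1, at 25.8, where the other myenteric libraries ran from 3.15 to 7.60.

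**Figure D2:**
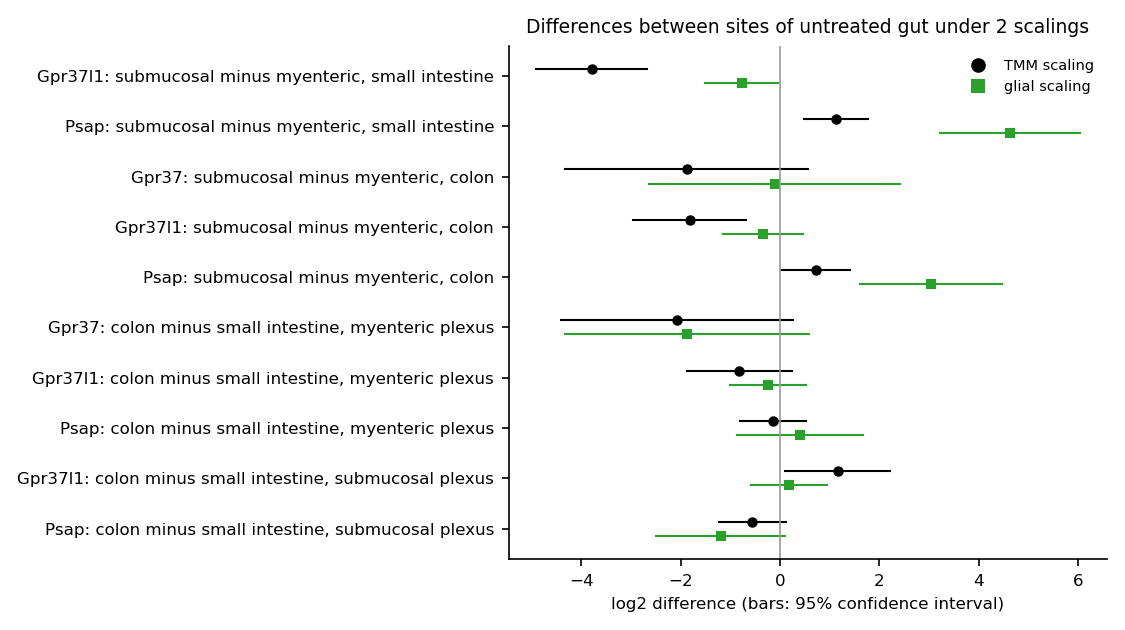
Log2 difference between untreated sites with its 95% interval (x axis) for each member and comparison (y axis), with TMM scaling in black and glial scaling in green. The Gpr37l1 plexus differences lie near 0 with glial scaling (-0.35 in colon, -0.77 in small intestine) and the Psap ones move to 3.03 and 4.63; the all-gene medians on that scale were 2.29 and 3.25, and comparisons in which a Gpr37 group was at 0 throughout are left out.

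Markers moved with these results between plexuses. In small intestine, 7 of 7 glial markers fell (median log2 -3.22) and 6 of 6 macrophage markers (median 2.57), 4 of 4 lymphocyte markers (7.99) and 4 of 4 epithelial markers (5.21) rose in submucosal plexus. In colon, 4 of 7 glial markers fell (median -1.70), 5 of 6 macrophage (3.29) and 4 of 4 lymphocyte markers (5.62) rose, and 1 of 4 epithelial markers rose. Neuronal markers fell too, 6 of 6 in small intestine (median -3.95) and 4 of 6 in colon (-1.96), as did 4 of 4 smooth muscle markers in each (-3.14 and -4.09). Mesothelial Msln and Upk3b were at 0 in every colon submucosal library. Mitochondrial genes took 11.6% to 18.8% of counts in small intestine myenteric libraries and 2.84% to 9.43% in submucosal ones, with no overlap, and 5.35% to 16.5% and 4.02% to 7.18% in colon. The Gpr37l1 differences lay near the glial and the neuronal medians in both organs, and the Psap difference was smaller than the median of the macrophage markers; the part of these markers and of the mitochondrial share in the member results was not tested.

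**Figure D3:**
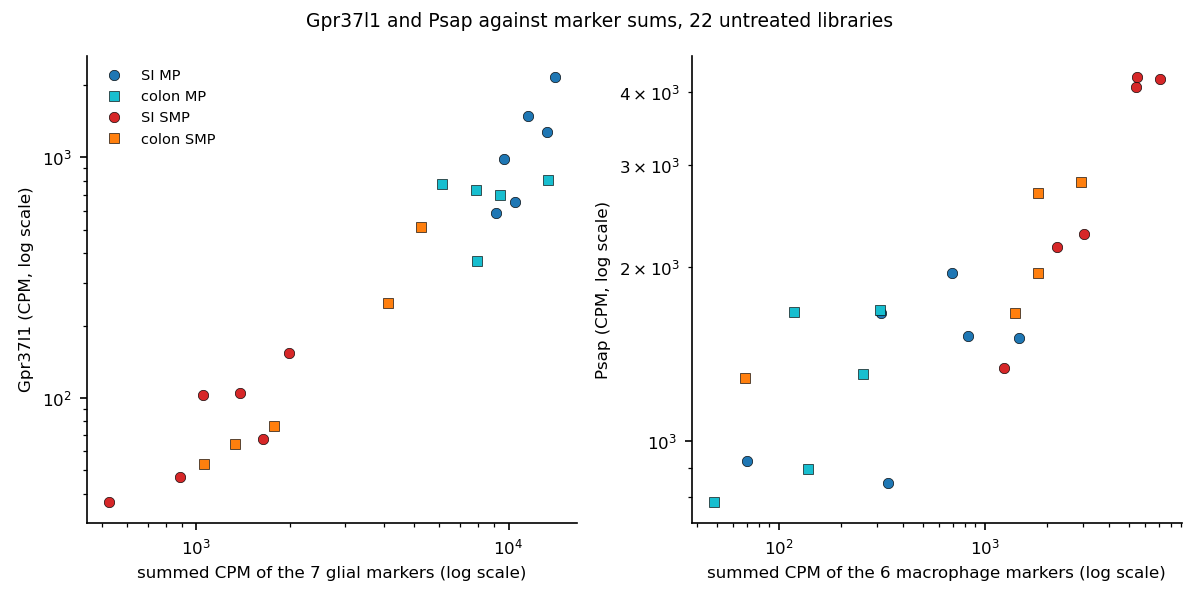
Gpr37l1 CPM against the summed CPM of 7 glial markers (left) and Psap CPM against the summed CPM of 6 macrophage markers (right) in the 22 untreated libraries, log axes, 1 point a library coloured by site. Gpr37l1 falls from 2163 CPM among the glia-rich myenteric libraries to 36.9 CPM at the low end, and Psap reaches its highest values, up to 4254 CPM, among the small intestine submucosal libraries.

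Levels were compared between genes as CPM per kilobase of exon. Untreated small intestine myenteric plexus held Gpr37l1 at 524.1 ± 259.9 (SD, n = 6) and Psap at 510.7 ± 157.3 CPM per kb, so receptor and ligand precursor were at like levels there, while Gpr37 was at 3.72 ± 2.68. Small intestine submucosal plexus held Gpr37l1 at 37.8 ± 19.3 and Psap at 1113 ± 466.7 CPM per kb. By rank per kb among genes above 0, Psap stood at percentile 99.2 to 99.8 over the 16 groups, Gpr37l1 at 92.1 to 99.7, and Gpr37 at 14.9 to 59.8 where it was detected outside the knockout. The ratio of Gpr37l1 to Gpr37 per kb was 140.8 in small intestine myenteric, 343.4 in colon myenteric and 362.3 in colon submucosal libraries. In wild-type myenteric groups of the other experiments it ran from 79.2 (2 h, PBS, small intestine) to 1300 (2 h, LPS, colon, where few Gpr37 reads were counted). Gpr37l1 thus exceeded Gpr37 per length in every group with Gpr37 reads.

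A list of 39 genes of prosaposin handling, saposin-dependent hydrolases, inhibitory G proteins, endothelin receptors and their ligands, and reported partners of the receptors gave the wider pathway; 38 were tested. Between small intestine plexuses 10 rose and 10 fell in submucosal plexus (list median 0.12, all genes 0.06), where 43.5% of all genes passed, so the count lay near the background. Of the 11 hydrolase-group genes 7 rose and 1 fell, of the 5 inhibitory G protein alpha subunits 3 fell, of the 10 handling genes 2 rose and 4 fell, and of the 6 endothelin genes 1 rose and 2 fell. Gm2a, the GM2 activator protein, rose by 2.00 ± 0.27 (811.6 against 202.9 CPM), and Hexa, a subunit of the hexosaminidase it serves, by 1.21 ± 0.21 (382.7 against 165.4). Scarb2, a lysosomal membrane protein, fell by 1.77 ± 0.25 (160.1 against 546.2 CPM). Ednrb, the endothelin receptor known from enteric nervous system development, fell by 3.45 ± 0.48 (36.1 against 395.7), and Gnao1, the Go alpha subunit, by 3.23 ± 0.65 (4.81 against 44.4).

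Between colon plexuses 3 of the 38 rose and 4 fell (list median 0.12, all genes -0.01), against 21.8% of all genes, again near the background. Gm2a rose by 1.31 ± 0.29 and M6pr, a mannose 6-phosphate receptor that carries lysosomal enzymes, by 0.55 ± 0.18. Scarb2 fell by 1.22 ± 0.27, Lrp1, an endocytic receptor for prosaposin, by 1.44 ± 0.36 and Gnao1 by 2.24 ± 0.68. Between regions, Ece1, the endothelin-converting enzyme, was the only pathway gene of 38 past the test, higher in colon than small intestine submucosal plexus by 1.36 ± 0.33 (edgeR quasi-likelihood test, adjusted p = 0.0155; 5.18% of all genes passed). None of the 38 passed between myenteric regions or in the interaction.

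At 2 h after LPS none of the members changed by the test. Gpr37 in small intestine was 30.3, 44.4, 34.5 and 30.4 CPM after PBS and 21.8, 0.603, 7.67 and 40.9 CPM after LPS. After LPS 3 of 4 libraries lay below the PBS range and 1 inside it, and the difference was -0.97 ± 1.45 (95% interval -4.04 to 2.09; edgeR quasi-likelihood test, adjusted p = 1; 1.1% of 13107 genes passed). Gpr37 in colon was 0, 13.9, 2.00 and 0 CPM after PBS and 0.223, 0.200, 4.93 and 0 after LPS (-1.64 ± 1.57, adjusted p = 1; 0.778% of genes passed). In colon 1 PBS library was at 13.9 CPM and 4 of the 8 libraries were at or below 0.200 CPM, so the spread between libraries was larger than the difference.

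Gpr37l1 at 2 h was 758.3, 989.5, 1372 and 1012 CPM after PBS and 826.4, 615.3, 1478 and 810.9 after LPS in small intestine. In colon it was 405.6, 947.4, 1053 and 773.7 CPM after PBS and 482.7, 499.2, 716.7 and 902.9 after LPS. The groups overlapped in both organs, with log2 differences of -0.15 (95% interval -0.83 to 0.54) and -0.29 (-0.97 to 0.40). Psap at 2 h was the steadiest of the 3: 1356, 1496, 1351 and 1512 CPM after PBS and 1570, 1344, 1992 and 1527 after LPS in small intestine. In colon Psap was 1148, 1441, 1222 and 993.4 CPM after PBS and 1217, 1165, 1483 and 1460 after LPS. The Psap intervals were -0.21 to 0.55 in small intestine and -0.23 to 0.53 in colon, so a change of Psap beyond 0.55 on the log2 scale in either direction lay outside both. No member passed the interaction of LPS and region (0% of all genes passed by edgeR, with 452 genes at an unadjusted p under 0.05 and 44 called by DESeq2).

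Between regions at 2 h the Gpr37 ranges were separate after PBS, with all 4 small intestine libraries above the 4 colon ones (-3.14 ± 1.58, colon against small intestine; adjusted p = 0.517; 0.221% of genes passed). After LPS they overlapped (-3.81 ± 1.66, edgeR adjusted p = 0.426, with 0.061% of genes passing). With 1 library left out at a time, the Gpr37 difference ran from -5.76 to -2.72 after PBS and from -6.69 to -2.97 after LPS. Neither passed the test, nor did any region difference of Gpr37l1 or Psap. None of the 36 pathway genes tested at 2 h passed in any of the 5 comparisons.

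The 24 h experiment compared Gpr37-/- with Gpr37WT mice, so Gpr37 was first read in every library as a check on the labels. The 18 knockout libraries held 18 Gpr37 counts in all; 10 were at 0, 17 were at or below 3 counts and 1, PBS colon mouse 15, held 9 counts (0.802 CPM). The 19 wild-type libraries held 1229 counts, up to 158 in a library. However, 3 wild-type libraries were at 0 and 4 at or below 3 counts, all after LPS: mouse 3 small intestine and mice 5 and 8 colon at 0, and mouse 3 colon at 2 counts. Mouse 3 was thus at or near 0 in both organs. Whether its label is right was not tested, and results that use it were also computed without it. The 4 wild-type libraries at or below 3 counts are also all of mice numbered 10 and below. Wild-type PBS colon holds no mouse of that set, and the part of the set in these low counts was not tested.

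**Figure D4:**
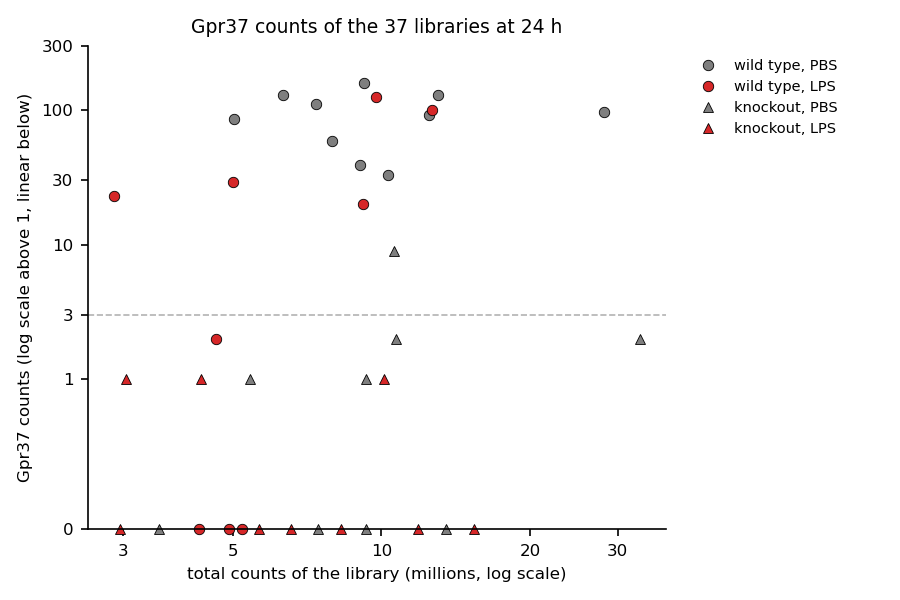
Gpr37 counts (y axis, linear up to 1 and log above) against the library's total count (x axis, in units of 1000000, log scale) in the 37 libraries at 24 h, by genotype and treatment, with a dashed line at 3 counts. Knockout libraries lie at or below the line but for 1 at 9 counts, and 4 wild-type LPS libraries lie there with them.

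After PBS, wild-type small intestine had Gpr37 from 6.50 through a median of 12.2 to 17.4 CPM and wild-type colon had 13.3, 4.43, 3.41 and 3.18 CPM, all above every knockout library. The ratio of wild type to knockout was 134.9 in small intestine (652 against 5 counts; 95% counting interval 57.5 to 416.9) and 21.2 in colon (279 against 10 counts; 11.3 to 44.6), where 9 of the 10 knockout counts are from mouse 15 and the rest of that group holds 1. After LPS the ranges overlapped, with ratios of 165.4 in small intestine (253 against 2 counts; 45.3 to 1373) and 55.3 in colon (45 against 1; 9.43 to 2232). These intervals cover counting error only, since reads amplified without molecular identifiers are not independent molecules.

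None of these 4 Gpr37 differences passed in edgeR's quasi-likelihood test after adjustment, at adjusted p 0.961 (PBS small intestine), 1 (PBS colon), 0.257 (LPS small intestine) and 0.136 (LPS colon); DESeq2 called all 4 (adjusted p 5.5e-05, 0.0416, 0.000944 and 0.0145). Over all genes, 0% passed by edgeR after PBS in small intestine (256 at an unadjusted p under 0.05, 58 called by DESeq2) and 0% in colon (629 and 74), while 0.0134% passed after LPS in small intestine and 0.429% in colon. At an unadjusted p under 0.05, Gpr37 was among the genes in all 4 comparisons. The deleted gene itself was thus not called by edgeR in these comparisons, so for a gene of few counts a missing call does not show the absence of a change. How far that limit reaches Gpr37l1 and Psap, which have more counts, was not tested.

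LPS at 24 h gave lower Gpr37 means in both wild-type organs with overlapping libraries. Small intestine had 0, 9.12, 13.1 and 5.36 CPM after LPS against 6.50 to 17.4 after PBS (-0.77 ± 1.19; adjusted p = 0.772; 7.17% of genes passed). Colon had 8.37, 2.40, 0.472, 0 and 0 CPM after LPS against 3.18 to 13.3 after PBS (-1.46 ± 1.23; adjusted p = 0.494; 7.96% of genes passed). In the colon 4 of 5 LPS libraries lay below the lowest PBS library and mouse 13 lay inside the PBS range. Wild-type LPS colon mice 3, 5 and 8 are numbered 10 and below, and no wild-type PBS colon mouse is. Without mouse 3 the Gpr37 differences were -0.35 in small intestine and -1.18 in colon, and without the colon libraries of high epithelial markers the colon one was -0.78. Leaving out 1 library at a time moved the colon value between -2.99 (without LPS mouse 13) and -0.69 (without PBS mouse 14). In knockout mice both treatments were at or below the floor of 3 counts but for mouse 15 (1 to 10 counts summed over a group), so no LPS change of Gpr37 is read there.

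Gpr37l1 after LPS in wild-type small intestine was 298.9, 308.9, 370.8 and 218.5 CPM against 311.5 to 1378 after PBS (-0.97 ± 0.69, 95% interval -2.37 to 0.43). In wild-type colon it was 315.6, 364.2, 121.7, 533.4 and 63.8 CPM against 575.6, 325.3, 364.3 and 533.3 after PBS (-0.68 ± 0.69, -2.09 to 0.72). In knockout small intestine it was 1004, 273.9, 197.9, 329.1 and 217.4 CPM against 848.5, 387.9, 433.7 and 3770 after PBS (-1.75 ± 0.70, -3.17 to -0.33; edgeR quasi-likelihood test, adjusted p = 0.286; 0.718% of genes passed). In knockout colon it was 271.2, 369.3, 913.9 and 177.6 CPM against 485.3, 634.4, 1916, 88.9 and 1146 after PBS (-0.98 ± 0.71, -2.42 to 0.46; 0.718% of genes passed). Without knockout PBS mouse 7 the knockout small intestine difference was -0.40. Means were lower after LPS in all 4 comparisons, the libraries overlapped in each, and none passed the test.

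The 2 highest Gpr37l1 libraries were also the 2 highest in summed glial markers. Knockout PBS mouse 7 small intestine, at 3770 CPM of Gpr37l1, had 17020 CPM of glial markers, and knockout PBS mouse 1 colon, at 1916 CPM, had 14770 CPM. Knockout LPS mouse 2 colon, at 913.9 CPM of Gpr37l1, had 3971 CPM of glial markers, within the range of the other colon libraries. Knockout PBS mouse 20 colon and wild-type LPS mouse 8 colon, at 88.9 and 63.8 CPM, were 2 of the 3 libraries with summed epithelial markers above 1000 CPM (4414 and 4236 CPM). Without the 3, the wild-type colon LPS difference of Gpr37l1 was -0.15. With glial scaling the LPS differences of Gpr37l1 became 0.55 ± 0.48 and 0.22 ± 0.51 in wild-type small intestine and colon and -0.20 ± 0.50 and -0.06 ± 0.50 in knockout ones; on that scale the all-gene medians were 0.95, 1.73, 1.01 and 0.10. The sign in wild-type mice thus flipped with the scale, with Gpr37l1 still below the all-gene median in both organs.

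Gpr37l1 was compared between genotypes because it is the relative of the deleted receptor. Knockout against wild type was 1.21 ± 0.66 after PBS in small intestine (95% interval -0.13 to 2.55), 0.93 ± 0.71 after PBS in colon (-0.51 to 2.36), 0.44 ± 0.70 after LPS in small intestine (-0.99 to 1.86) and 0.63 ± 0.69 after LPS in colon (-0.78 to 2.03). None passed the test. A single knockout library set the sign of 3 of the 4: without mouse 7 the small intestine value after PBS was -0.10, without mouse 11 the small intestine value after LPS was -0.23, and without mouse 2 the colon value after LPS was -0.0369. With glial scaling the small intestine value after PBS was 0.25 ± 0.48, with scaled means of 465.4 ± 136.4 in knockout and 390.1 ± 44.9 in wild-type libraries. The wide intervals leave a doubling of Gpr37l1 in the knockout inside all 4, and likewise no change. Mice numbered 10 and below were not balanced between genotypes after PBS. In colon they were knockout mice 1 and 7 (1916 and 1146 CPM of Gpr37l1) and no wild-type mouse. In small intestine they were knockout mouse 7 (3770 CPM) and wild-type mouse 9 (1378 CPM).

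Psap after LPS at 24 h gave the clearest treatment difference among the members without passing the test. In wild-type colon it was 1117, 1211, 1185, 1237 and 566.1 CPM after LPS and 1712, 1905, 1667 and 1500 CPM after PBS. All 5 LPS libraries lay below all 4 PBS ones, and the difference was -0.67 ± 0.23 (95% interval -1.15 to -0.20; edgeR quasi-likelihood test, adjusted p = 0.0644). DESeq2 called it (-0.64, adjusted p = 0.0300). In knockout colon Psap was 2334, 1296, 1604 and 1581 CPM after LPS and 2003, 1703, 1132, 1129 and 1020 CPM after PBS (0.29 ± 0.23, overlapping). After LPS in colon, every knockout library lay above every wild-type one (0.68 ± 0.23, 95% interval 0.21 to 1.15; adjusted p = 0.156). The interaction of genotype and LPS for Psap in colon was 0.96 ± 0.33 (adjusted p = 0.210), and did not pass; 0% of genes passed that interaction by edgeR (2009 at an unadjusted p under 0.05, 340 called by DESeq2). These comparisons share the wild-type LPS colon libraries.

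Libraries and scales that bear on the Psap colon values moved with them. Wild-type LPS colon mice 3 and 8 were the highest of that group in summed neutrophil markers, at 1987 and 1758 CPM. They were also 2 of the 3 colon libraries with high epithelial markers (2922 and 4236 CPM), and mouse 8 was the lowest in Psap. Without those 3 libraries, a choice made after seeing the data, the wild-type colon LPS difference was -0.51 (adjusted p = 0.237), the genotype difference after LPS 0.52 (adjusted p = 0.365) and the interaction 0.73. With mice numbered 10 and below as a covariate they were -0.49 (adjusted p = 0.197), 0.58 and 0.75. Without mouse 3 the LPS difference was -0.70 (adjusted p = 0.0873). With glial scaling the LPS and genotype differences turned to 1.10 ± 0.75 and -0.69 ± 0.74, against all-gene medians of 1.73 and -1.31 (glial marker sums of 1032 to 4766 CPM after LPS and 3208 to 5765 after PBS in wild-type colon). The direction of Psap in colon thus held over these TMM-scaled settings and flipped relative to glial genes. Psap stayed below the all-gene median of the LPS comparison and above that of the genotype comparison. The part of epithelial, neutrophil and glial RNA in these differences was not tested. Summed fibroblast markers also moved with Psap in wild-type colon. They were at 7003 to 11660 CPM after PBS and 262.4 to 5975 after LPS, with no overlap. In knockout colon after LPS they ran from 898 through 11380 to 12060 CPM, and their part was not tested either. The low sums went with mouse number: wild-type LPS mice 3, 5 and 8 had 2286, 262.4 and 485.7 CPM, and knockout LPS mouse 2 had 898. Wild-type LPS mice 13 and 16 had 5418 and 5975 CPM. No wild-type PBS colon mouse is numbered 10 or below, so treatment and mouse set cannot be fully told apart there.

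In small intestine Psap differed little at 24 h. Wild-type libraries ran from 1024 through 1537 to 1748 CPM after PBS and were 1109, 1308, 1173 and 1295 after LPS (-0.29 ± 0.23, 95% interval -0.75 to 0.17). Knockout libraries were 2042, 1734, 1648 and 1619 CPM after PBS and 2309, 1318, 1309, 1268 and 1415 after LPS (-0.21 ± 0.23, -0.68 to 0.27), where mouse 11 stood alone above the rest. Knockout against wild type was 0.24 ± 0.22 after PBS and 0.32 ± 0.24 after LPS, and -0.28 ± 0.23 after PBS in colon. The interaction in small intestine was 0.08 ± 0.32 for Psap, and 0% of genes passed it by edgeR (578 at an unadjusted p under 0.05, 59 called by DESeq2). No small intestine value of Psap passed the test.

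**Figure D5:**
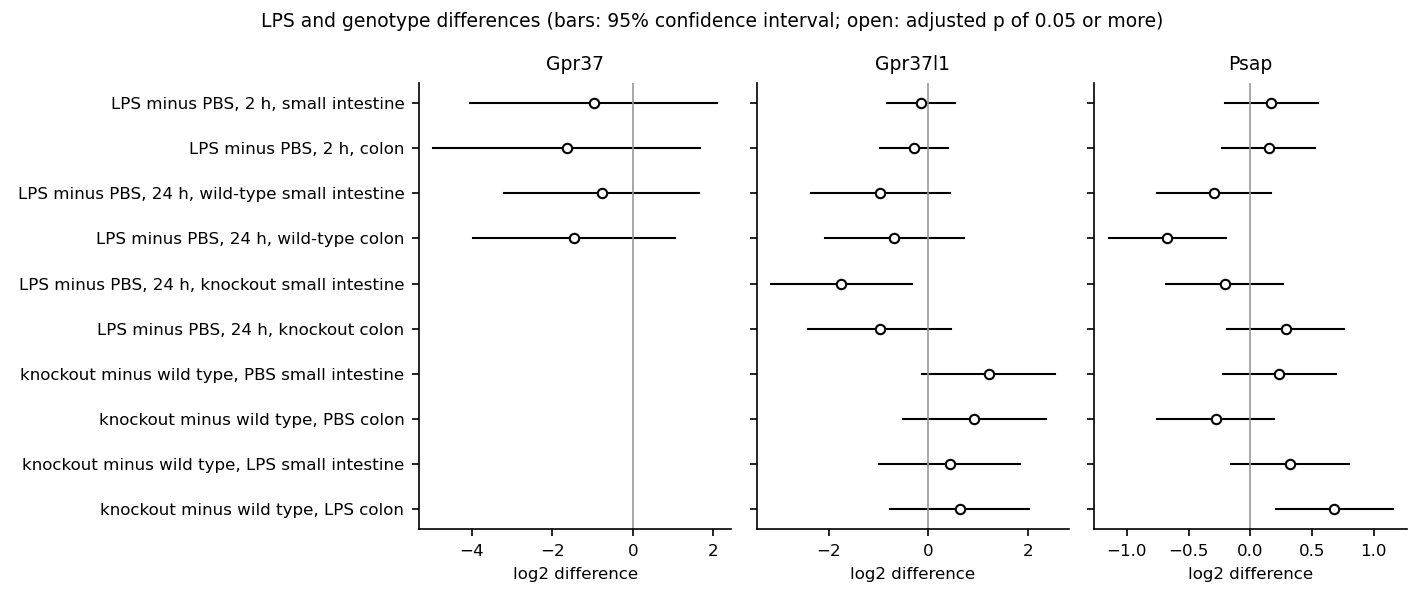
Log2 differences at 2 h and 24 h with 95% intervals (x axis, its scale set for each panel) for Gpr37, Gpr37l1 and Psap in 3 panels, by comparison (y axis); open symbols mark an adjusted p of 0.05 or more, which holds for all of them, and Gpr37 comparisons within or against the knockout are left out. Psap has the narrowest intervals, and those of its wild-type colon LPS difference (-0.67) and its genotype difference after LPS in colon (0.68) lie off 0, as does that of Gpr37l1 after LPS in knockout small intestine (-1.75, or -0.40 without mouse 7).

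In the pathway list at 24 h, 4 of 38 genes rose and 2 fell after LPS in wild-type small intestine (list median -0.07, all genes -0.13; 7.17% of all genes passed). Grn, the progranulin that binds prosaposin and travels with it to lysosomes, rose by 1.01 ± 0.20 (818 against 406 CPM). Ctsb, a lysosomal protease, rose by 0.94 ± 0.22 (3029 against 1579), Neu1, a lysosomal sialidase, by 0.93 ± 0.25 and Sdcbp, the scaffold syntenin, by 0.59 ± 0.18. In wild-type colon 1 rose and 5 fell (list median -0.61, all genes -0.03; 7.96% of all genes passed). Neu1 rose there by 0.86 ± 0.27. Hexa fell by 1.66 ± 0.35 (103.6 against 326.7 CPM), Ctsd, the protease that cuts prosaposin, by 0.69 ± 0.18 (458.3 against 739), Slc1a3, a glutamate transporter, fell by 3.86 ± 1.17 and Igf2r, the large mannose 6-phosphate receptor, by 2.04 ± 0.64. None of the 38 passed after LPS in the knockout, between genotypes, in the interactions or between wild-type regions. Neutrophil markers moved with these LPS comparisons: in small intestine 3 of 4 rose (median log2 9.93; summed 0 to 3.53 CPM after PBS and 5.82 to 614.7 after LPS) and in colon 1 of 4 (median 5.56; 0.0965 to 61.5 and 6.59 to 1987 CPM). In each organ 1 of 3 fibroblast markers fell, and in small intestine 1 of 6 macrophage markers fell and 1 of 7 glial markers rose (glial median -1.19); their part in the pathway values was not tested.

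Both organs were sampled from the same mouse in 8 wild-type and 7 knockout animals at 24 h. Gpr37 was higher in small intestine in 6 of 8 wild-type mice, 4 of 4 after PBS and 2 of 4 after LPS. Gpr37l1 was higher in small intestine in 5 of 8 wild-type and 5 of 7 knockout mice, and Psap in 3 of 8 and 5 of 7. In the fits over wild-type mice, colon against small intestine was -0.96 ± 1.20 for Gpr37, -0.38 ± 0.67 for Gpr37l1 and 0.18 ± 0.22 for Psap after PBS (0.141% of genes passed), and -1.65 ± 1.23, -0.10 ± 0.69 and -0.20 ± 0.23 after LPS (0.262% of genes passed). No member passed either test. The Gpr37 mean was lower in colon than in small intestine in the untreated myenteric, 2 h and wild-type 24 h libraries alike, with none of those differences past the threshold. Neuronal markers were also lower in colon in these 5 comparisons, with medians of -3.11 (untreated, 5 of 6 called), -2.94 and -2.14 (2 h, PBS and LPS) and -1.35 and -1.98 (24 h, PBS and LPS; none called at 2 h or 24 h). Smooth muscle medians were 1.86, 2.04 and 1.80 in the untreated and 2 h comparisons and near 0 at 24 h; the part of either in the Gpr37 values was not tested.

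The genes with levels most like each member were ranked by Spearman's rho over the 22 untreated libraries, which share the 4 sites and their glial content. Among the 5 genes most like Gpr37l1 were Sox10 and Lgi4 (both 0.975) and Gfra2 (0.963). Sox10 is the transcription factor that specifies enteric glia, Lgi4 a secreted glial protein and Gfra2 a neurturin co-receptor. Over the 19 wild-type libraries at 24 h these stood at 0.812, 0.895 and 0.746. Psap was most like Grn (0.919), Ctsa (0.912), Rhog (0.903), Adgre5 (0.902) and Lrrc25 (0.902). Ctsa is lysosomal protective protein, and Adgre5 (CD97) and Lrrc25 are known from leukocytes. At 24 h these were -0.332, 0.281, -0.468, 0.830 and -0.435, so most of the likeness to Psap was not seen within myenteric plexus.

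Gpr37 was most like Pdp1 (0.922), Gpsm2 (0.919), Ahi1 (0.918), Tubb4a (0.914) and Apod (0.914), which at 24 h stood at 0.171, 0.292, 0.427, 0.267 and -0.195. Gpsm2 is a regulator of inhibitory G protein alpha subunits and Apod a lipocalin known from glia. Among the members, Gpr37 and Gpr37l1 had a rho of 0.833 in untreated and 0.376 in wild-type 24 h libraries, Gpr37 and Psap -0.595 and 0.390, and Gpr37l1 and Psap -0.469 and 0.219. The receptors ran together over the untreated sites and against Psap, and all 3 pairs were weakly positive within the 24 h myenteric libraries.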

How the data were processed

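The 2 count tables hold 75 Smart-seq2 libraries. The authors deposited raw read counts per gene; the submitters' processing notes name Trim Galore 0.4.4, STAR 2.5.3, DESeq2 and GRCm38, without their order or settings, and whether counting used strand is not given in the sources used here. From these counts, edgeR 4.0.16 (R 4.3.3) gave TMM-scaled CPM and quasi-likelihood tests, with all groups of an experiment in 1 fit, filterByExpr (14090, 13107 and 14903 genes kept in the untreated, 2 h and 24 h experiments) and Benjamini-Hochberg adjustment over all kept genes; the threshold was 0.05. All 3 members were kept in each. DESeq2 1.42.0, RLE, no filter, glial scaling, covariates, a replicate block and left-out libraries were alternatives. The scripts were checked on simulated data. Python 3.11.15, pandas 2.3.3 and matplotlib 3.10.9 made summaries and plots.

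The members, marker and pathway lists were chosen with earlier results of these data known. Pathway genes were named by smallest p among those past the threshold, at most 6 a comparison, and 5 genes a member by Spearman's rho; some genes that these rules name are not reported here. At 24 h, libraries of 1 mouse share its number: their deviations from group means correlated at 0.121 on average (10 of 15 pairs over 0.1; other pairs -0.0016). Depth, 1990744 to 33283346 counts a library, limits Gpr37 most; its zeros are bounded at 3 counts, and counting intervals are exact at 95%.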

Additional observations from a re-analysis of the deposited data

Results flagged for a closer look

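Over 47 sets of values, 1 for each member and group of 4 to 6 libraries, 12 held a value that stood apart from the rest by Dixon's ratio at the 95% level, where chance marks about 1 in 20 groups. For Gpr37 these were high libraries in groups otherwise near 0 or low: 2 h PBS colon male 2 (13.9 CPM), 2 h LPS colon female 3 (4.93), wild-type LPS colon mouse 13 (8.37), wild-type PBS colon mouse 14 (13.3), knockout PBS colon mouse 15 (0.802), knockout LPS colon mouse 2 (0.268) and knockout LPS small intestine mouse 6 (0.321). For Gpr37l1, untreated colon myenteric male 1 was low (369.7 CPM), and knockout LPS small intestine mouse 11 (1004 CPM) and knockout PBS small intestine mouse 7 (3770 CPM) were high. For Psap, wild-type LPS colon mouse 8 was low (566.1 CPM) and knockout LPS small intestine mouse 11 high (2309 CPM). Knockout LPS mice 2 and 6 stood apart on 1 Gpr37 count each, under the floor of 3 counts, so the zeros of their groups set those 2. Mouse 11 stood apart for both Gpr37l1 and Psap in small intestine. No interaction of plexus and region, LPS and region, or genotype and LPS passed edgeR's test for a member; DESeq2 called that of plexus and region for Gpr37, in which 1 group is at 0.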

How the results depend on the processing

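Of 66 member results, 66 kept their direction and side of the threshold without the filter and with sex as a covariate, 65 with RLE, 58 with DESeq2 and 47 with glial scaling. Glial scaling reversed, as log2: at 24 h after LPS, Gpr37 in knockout (0.0091) and wild-type small intestine (0.0947), Gpr37l1 in wild-type colon (0.22) and small intestine (0.55), and Psap in knockout small intestine (0.76) and wild-type colon (1.10) and small intestine (0.72); between genotypes, Gpr37l1 after LPS in small intestine (-0.49) and Psap after LPS in colon (-0.69), LPS in small intestine (-0.30) and PBS in small intestine (-0.33); the genotype and LPS interaction of Gpr37 in small intestine (-0.0856) and Psap in colon (-0.62); Psap between myenteric regions (0.40) and wild-type regions after LPS (0.36) and PBS (-0.014); and Gpr37l1 at 2 h in small intestine (0.0593). This scale moved the median of all genes too: after LPS at 24 h by 0.95 and 1.73 in wild-type small intestine and colon and 1.01 in knockout small intestine, and between genotypes by -1.31 (LPS colon), -0.43 (LPS small intestine) and -0.47 (PBS small intestine). It ended the Gpr37l1 colon plexus call (-0.35) and added that of Psap (3.03). DESeq2 added calls for Gpr37 in the plexus and region interaction (7.43), between submucosal regions (5.29) and between genotypes (LPS colon -5.59, LPS small intestine -6.61, PBS colon -4.79, PBS small intestine -7.16), and for Psap after LPS in wild-type colon (-0.64). The Psap LPS and region interaction at 2 h was 0.0 with DESeq2 and 0.0004 with RLE, from -0.02. With only the groups compared, Gpr37 passed between genotypes after PBS in small intestine (-6.98) and Gpr37l1 between colon plexuses did not (-1.77, adjusted p = 0.0616 by edgeR). Mice numbered 10 and below as a covariate reversed the Gpr37l1 interaction in colon (0.29) and that of Psap in small intestine (-0.0041). For Gpr37l1 between wild-type regions after LPS, leaving out mouse 3 gave 0.10 and leaving out the 3 epithelial-high libraries 0.43.

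The replicate block changed no call and reversed 1 of 36 results, Gpr37l1 between wild-type regions after PBS (0.0785). Shared replicate numbers were not taken as pairs in the untreated and 2 h libraries. Deviations of same-numbered libraries correlated at 0.0928 (10 of 30 pairs over 0.1, other pairs -0.0172) and 0.0602 (5 of 24, other pairs -0.0195). At 2 h a number is shared by PBS and LPS libraries, which are of different mice, so neither 0.0602 nor the block can decide on pairing there. The untreated value lies near the 0.121 of same-mouse pairs at 24 h, so it does not show those libraries to be unpaired.

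Leaving out 1 library at a time gave, where a direction or call changed: Gpr37 after LPS at 2 h in colon -4.50 to 0.98, at 24 h in knockout colon -4.13 to 0.043 and small intestine -1.23 to 0.20, LPS and region interaction at 2 h -3.55 to 1.95, genotype and LPS interaction -2.67 to 1.47 in colon and -0.46 to 0.95 in small intestine, and submucosal regions 4.47 to 6.32; Gpr37l1 after LPS at 2 h in small intestine -0.46 to 0.0266, LPS and region interaction -0.36 to 0.17, genotype and LPS interaction -0.96 to 0.24 in colon and -1.46 to 0.50 in small intestine, genotypes after LPS in colon -0.0369 to 1.00, LPS in small intestine -0.23 to 0.61 and PBS in small intestine -0.10 to 1.67, colon plexuses -2.61 to -1.58, and wild-type regions after LPS -0.47 to 0.16 and PBS -0.52 to 0.0694; Psap LPS and region interaction at 2 h -0.10 to 0.10 and genotype and LPS interaction in small intestine -0.10 to 0.17. The causes were not tested. Fitted Gpr37 values are no fold or bound, and their reversals carry no information, where small intestine submucosal plexus (at 0) or knockout groups (1 to 10 counts) enter.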
